A study of Mus musculus with 18 samples.

Results

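The genes described here are 8 transcription factors that pattern the forebrain: Emx1, Emx2, Lhx2, Otx1, Otx2, Six3, Nr2f1 and Nr2f2. They were chosen by name as factors of this kind, not by a threshold on a measured value but with earlier results of these data known, and all 8 were among the 27997 genes of the deposited table. The data are bulk RNA-seq of adherent neural stem cell (NSC) cultures and of astrocytes made from them. Of the 3 lines, 2 came from mouse spinal cord and the other from mouse hippocampus.

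The traced tdTomato line (genotype DNGR-1 +/- Tom+/-) and the traced EYFP line (DNGR-1 +/- EYFP+/-) were grown from spinal cord neurospheres and sorted for their reporter. That reporter marks cells in which Cre, driven from the Clec9a (DNGR-1) locus, had removed a stop cassette at Rosa26 at any time in their history. The hippocampal line was labelled DNGR-1+/+. The series text describes its mice as carrying a Glast-driven Cre, a floxed Huwe1 allele and the Rosa EYFP reporter, and no source used here says whether Huwe1 had been deleted. NSCs grew on laminin with EGF and bFGF and were collected at day 4, and astrocytes received BMP4 at 20 ng/ml and were collected at day 6. Each of the 6 groups had 3 replicates, taken from passages 10 to 12, so there were 18 libraries. Since replicates were passages of a line and each origin was represented by 2 lines or 1, p-values measure the spread between passages and not between animals. The study's methods give 1 general range of weeks of age for its mice, and none for the animals behind each line.

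The anterior neural tube is divided into territories by factors of this kind, and many of them stay expressed in the stem cells and glia that descend from each territory. Emx1 and Emx2 are homeodomain proteins of the developing cortex, and Emx2 is needed for growth of the hippocampus. Lhx2 is a LIM-homeodomain protein that sets cortical identity and restrains the hippocampal organizer. Otx1 and Otx2 are relatives of the fly orthodenticle gene, Otx2 being required for the forebrain and midbrain to form and Otx1 for growth of the cortex. Six3 is a homeodomain repressor of the most anterior neural plate and the eye field. Nr2f1 and Nr2f2 (COUP-TFI and COUP-TFII) are orphan nuclear receptors that pattern the cortex and hippocampus, and both are also expressed in other parts of the nervous system.

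Values are deposited log2 expression values relative to library size. A step of 1 unit is a 2-fold difference in the deposited value, and folds given below are folds of these values. Their form is that of a regularized log, in which weakly expressed genes are pulled toward their mean and genes without reads do not share a fixed value. A gene was tested when its log2 value reached 3.32, or 10 as a linear value, in at least 3 libraries. Emx2, Lhx2, Otx1, Six3, Nr2f1 and Nr2f2 did so in all 18 libraries, whereas Emx1 and Otx2 did so in none. Differences were tested with limma over 15448 genes with Benjamini-Hochberg adjustment, and a difference was called at an adjusted p under 0.05.

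Most astrocyte markers followed the labels, and NSC markers did not all do so. Of 8 astrocyte markers, all 8 rose with BMP4 in the tdTomato line and 7 in each of the other lines. The exception was Aldh1l1, an enzyme of astrocytes, which stood at 10.28 in both fates of the hippocampal line, at 7.17 and 6.995 in NSCs and astrocytes of the EYFP line, and 10.9-fold higher in hippocampal than in traced NSCs. Gfap rose in all 3 lines on BMP4, by 6.08 to 7.13 on the log2 scale, and summed levels of the 8 astrocyte markers were 34230 to 76849 in NSCs and 154994 to 259131 in astrocytes on the linear scale. Hoxc10, a homeobox gene of the caudal trunk, lay at 9.09 to 10.09 in the 12 traced libraries and at 4.56 to 4.75 in the 6 hippocampal libraries. Among Hox genes with a mean of at least 100 on the linear scale, its difference between hippocampal and traced NSCs was the largest (-4.98). It was therefore no independent check of the labels. Of 33 Hox genes tested, 30 were lower and 2 higher in hippocampal NSCs, where 31.9% of all genes were called. Hoxa3 had a higher mean there, 8.73 against 7.54 and 7.86 in tdTomato and EYFP NSCs. Summed levels of 4 microglial markers were 2.19 to 4.24 in all libraries. Of 5 NSC markers, 3 rose in astrocytes of every line, among them Vim (vimentin, an intermediate filament), by 2.24 in the hippocampal line, and Sox2, a factor of neural progenitors, by 1.35 in the tdTomato line. Their summed level on the linear scale was 81784.5 to 90179 in NSCs, 84511 to 100378 in traced astrocytes and 192692 to 239237 in hippocampal astrocytes. Nestin (Nes), the intermediate filament of neural stem cells, is given beside the fate changes below. In bulk cultures, fewer cells expressing a factor and less RNA per cell cannot be told apart.

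Lhx2 and Nr2f2 changed in opposite directions in all 3 lines when astrocytes were made, and the 250 bases before a start of each show how differently the promoters of the pair are composed. The sequences are those of RefSeq on GRCm38.p6, for chr2:38339031-38339280 on the plus strand and chr7:70366747-70366996 on the minus strand, written 5′ to 3′. Neither window overlaps the annotated gene body in GENCODE M21. Capitals mark matches, on either strand, to GGCGCC (a motif of Smad1, which BMP signals activate) in Lhx2 and to TAATCC (the motif of Otx proteins) in Nr2f2.
Lhx2: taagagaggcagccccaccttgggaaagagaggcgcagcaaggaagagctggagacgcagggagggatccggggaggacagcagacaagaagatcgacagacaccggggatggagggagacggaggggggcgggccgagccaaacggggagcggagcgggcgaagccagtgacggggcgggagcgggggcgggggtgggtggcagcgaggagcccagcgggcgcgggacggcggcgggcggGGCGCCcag
Nr2f2: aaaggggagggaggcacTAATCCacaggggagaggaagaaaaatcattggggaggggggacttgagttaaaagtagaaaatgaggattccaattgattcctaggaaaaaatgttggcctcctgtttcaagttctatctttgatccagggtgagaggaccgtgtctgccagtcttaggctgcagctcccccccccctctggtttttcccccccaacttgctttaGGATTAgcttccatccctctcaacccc
The Lhx2 window held 25 CpG dinucleotides, and that of Nr2f2 held 1. RefSeq has another Lhx2 start, whose window (chr2:38351058-38351307) overlaps the annotated gene body, holds 24 CpG dinucleotides and has no match to the Smad1 motif. In the Lhx2 window shown, GGCGCC occurred 1 time, starting 9 bases before the start, and was present in 9.59% of all 32851 promoter windows of this length. TAATCC occurred 2 times in the Nr2f2 window, 233 and 27 bases before the start, and was present in 6.25% of all windows. TAATTA, a core recognised by many homeodomain proteins, and AGGTCA, the nuclear receptor half-site, were found in neither, against 4.84% and 14.0% of all windows. A match is a description of letters and not a site of binding. Nr2f1 rose in all 3 lines as Nr2f2 did, and its windows held 22 and 2 CpG dinucleotides and no TAATCC. Emx2 rose in the hippocampal line and was not called in the traced lines, and its window held GGCGCC 1 time. The Lhx2 window shown was 72.8% G and C, against a median of 52.4% for all windows. A link between these letters and the changes was not tested. RefSeq promoters were found for 7 of the 8 genes, Otx1 being the exception.

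The 6 factors above the filter passed it in spinal cord cultures as well as in hippocampal ones. The lowest of the 12 traced libraries stood at 7.79 for Emx2, 7.30 for Lhx2, 5.69 for Otx1, 3.78 for Six3, 11.11 for Nr2f1 and 8.91 for Nr2f2. No factor among the 8 was therefore above the filter in hippocampal libraries and below it in traced ones. Passing the filter does not by itself show expression on this scale, since Hoxc10 also passed it in the hippocampal line, at 4.56 to 4.75, and Six3 in traced astrocytes lay below that level. The plot of the 8 factors by library shows their levels side by side.

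**Figure D1:**
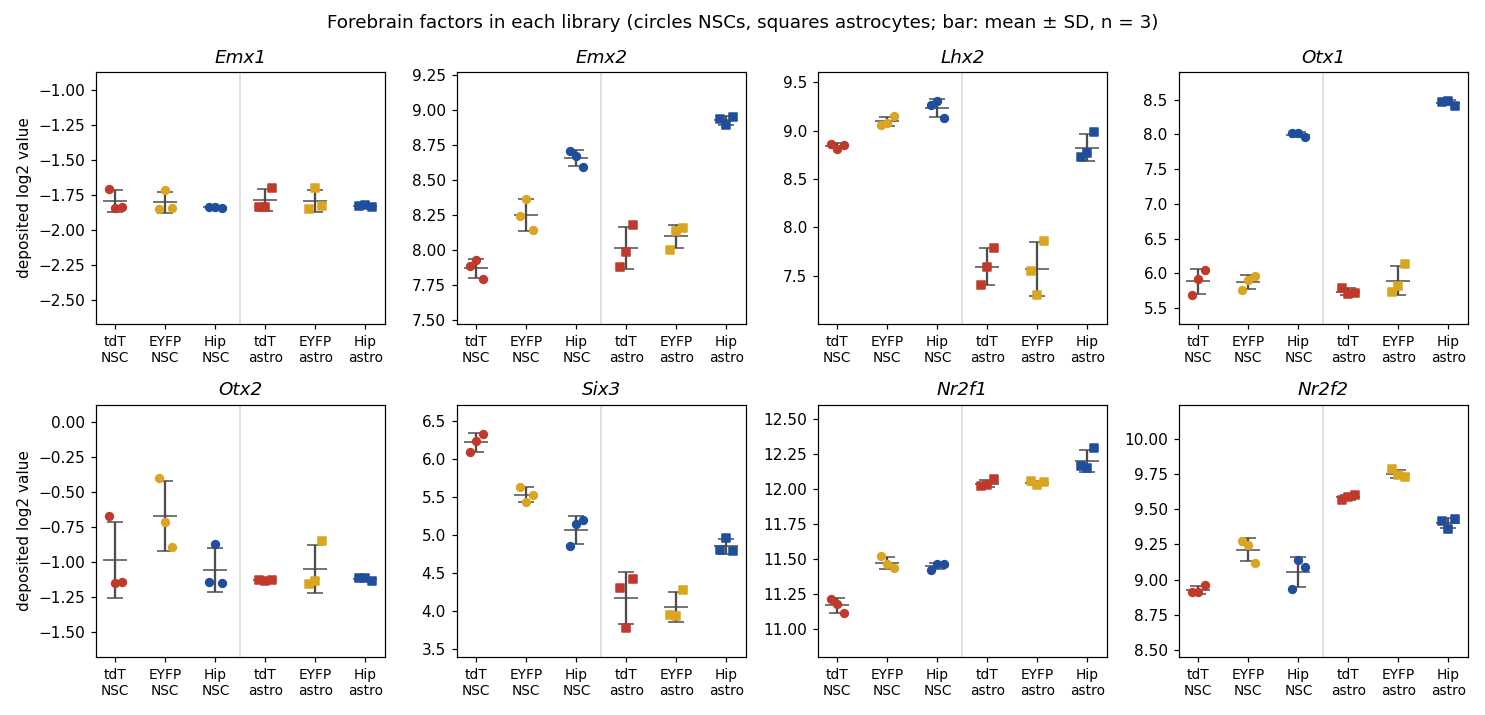
Deposited log2 values (vertical axes, each panel with its own range) of the 8 factors in the 6 groups; each point is a library and bars are the mean ± SD of 3 replicates. Otx1 separates the origins in both fates, Six3 does so in opposite directions, Lhx2 does so as astrocytes, Nr2f1 and Nr2f2 are higher in astrocytes of every line, and Emx1 and Otx2 stay below 0 everywhere.

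Per kilobase of annotated exon, Nr2f1 was the most abundant of the 8 in every group, at 8.82 to 9.85 on the log2 scale per kilobase. Lhx2 followed in NSCs of all lines, at 6.71 to 7.10, and then Emx2, at 6.28 to 7.07. In astrocytes Nr2f2 came next in both traced lines, at 6.48 and 6.64, while Emx2 did so in the hippocampal line, at 7.34. The order among the factors thus changed with fate in both traced lines. In the hippocampal line only Lhx2 and Emx2 changed places, and at 7.10 and 7.07 in NSCs they were too close to be ordered there. Exon lengths were those of the union of annotated exons, which need not be those used by the authors.

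Emx1 and Otx2 were at the bottom of the table in all cultures, hippocampal ones included. Emx1 lay between -1.85 and -1.70 in the 18 libraries, and 14 of them were within 0.05 of its lowest value. The other 4 were all traced libraries, at -1.71 to -1.70. Only 10.9% of genes in the table had a lower mean. Otx2 lay between -1.16 and -0.40, with 12 libraries within 0.05 of the lowest, and 21.1% of genes had a lower mean. Its highest value, -0.40, was in traced EYFP NSCs, whose other libraries stood at -0.72 and -0.89. Replicate 1 of the tdTomato NSCs stood at -0.67. The 3 EYFP NSC libraries were among the 6 libraries that stood above the lowest level. Neither gene could be tested at these levels. Of the pairs of close relatives, then, Emx2 and Otx1 were above the filter and Emx1 and Otx2 were not.

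Otx1 differed most between the origins. In hippocampal NSCs it stood at 8.02, 8.01 and 7.96, and in hippocampal astrocytes at 8.47, 8.48 and 8.41. Traced tdTomato cultures gave 5.69, 5.92 and 6.05 as NSCs and 5.79, 5.70 and 5.72 as astrocytes. Traced EYFP cultures gave 5.76, 5.91 and 5.97 as NSCs and 5.73, 5.82 and 6.13 as astrocytes. Every hippocampal library lay above every traced library, and the traced lines overlapped in both fates. The difference was 2.11 ± 0.10 (SE) in NSCs, or 4.33-fold (adjusted p = 8.8e-12), and 2.64 ± 0.10 in astrocytes, or 6.23-fold (adjusted p = 1.8e-13). The same sizes were found against each traced line alone, from 2.11 to 2.72. As NSCs the traced lines differed by -0.01 (95% interval -0.24 to 0.23, EYFP minus tdTomato).

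Across NSCs, 4 of the 6 tested factors were called between hippocampal and traced cultures, 3 higher and 1 lower, where 31.9% of all genes tested were called (14.9% higher and 17.0% lower). Emx2 and Nr2f1 were higher beside Otx1, and Six3 was lower. Across astrocytes all 6 were called, 5 higher and 1 lower, where 59.7% of all genes were called (31.9% higher and 27.9% lower). Against the tdTomato line alone 5 were called in NSCs and 6 in astrocytes, with 37.2% and 58.2% of all genes called. Against the EYFP line alone 3 were called in NSCs and 6 in astrocytes, with 25.8% and 51.6% of all genes called. The median difference of the 6 was 0.20 in NSCs and 0.80 in astrocytes, against -0.01 and 0.01 for all genes. With so large a share of genes called in astrocytes, the count of 6 is read together with the sizes that follow.

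Emx2 was higher in the hippocampal line in both fates. Hippocampal NSCs stood at 8.70, 8.67 and 8.59, traced tdTomato NSCs at 7.89, 7.93 and 7.79, and traced EYFP NSCs at 8.25, 8.37 and 8.14. As astrocytes the hippocampal libraries stood at 8.93, 8.89 and 8.95, those of the tdTomato line at 7.88, 7.99 and 8.18 and those of the EYFP line at 8.002, 8.13 and 8.16. The origins did not overlap in either fate. The difference was 0.60 ± 0.07 in NSCs (1.51-fold, adjusted p = 2.0e-06) and 0.87 ± 0.07 in astrocytes (1.83-fold, adjusted p = 4.8e-09). Among NSCs the EYFP line lay between the other 2, by 0.38 above the tdTomato line (adjusted p = 0.0014) and the hippocampal line lay 0.40 above it (adjusted p = 8.0e-04).

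Lhx2 overlapped between origins in NSCs and stood apart in astrocytes. NSC libraries gave 8.87, 8.81 and 8.85 in the tdTomato line, 9.06, 9.08 and 9.15 in the EYFP line and 9.27, 9.31 and 9.13 in the hippocampal line. Astrocyte libraries gave 7.40, 7.59 and 7.79 in the tdTomato line, 7.55, 7.30 and 7.86 in the EYFP line and 8.73, 8.76 and 8.98 in the hippocampal line. The difference was 0.26 ± 0.10 in NSCs (95% interval 0.06 to 0.47), which missed the threshold at an adjusted p of 0.051. It passed under 5 of 9 other settings of the analysis (adjusted p from 0.031 to 0.084 over the 9), and with each library left out the difference ran from 0.23 to 0.32 and its adjusted p from 0.019 to 0.17, below the threshold for 5 of 18 libraries, all of them astrocytes. Against the tdTomato line alone it was called (0.39, 1.31-fold, adjusted p = 0.012), and against the EYFP line alone it was 0.14 (adjusted p = 0.43). In astrocytes it was 1.24 ± 0.10, or 2.37-fold (adjusted p = 6.3e-09).

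Six3 changed its order between the fates. NSC libraries gave 6.09, 6.24 and 6.33 in the tdTomato line, 5.63, 5.43 and 5.53 in the EYFP line and 4.85, 5.15 and 5.20 in the hippocampal line. Astrocyte libraries gave 4.31, 3.78 and 4.43, then 3.95, 3.94 and 4.28, and then 4.80, 4.97 and 4.80, in the same order of lines. The origins did not overlap in either fate, the hippocampal line being lowest as NSCs and highest as astrocytes. The difference was -0.81 ± 0.15 in NSCs (adjusted p = 3.0e-04) and 0.74 ± 0.15 in astrocytes (adjusted p = 2.8e-04). The traced lines differed from each other as NSCs, by -0.69 ± 0.17 (EYFP minus tdTomato, adjusted p = 0.0048). Against the EYFP line alone the hippocampal difference of -0.46 in NSCs had an adjusted p of 0.052. Six3 had the largest spread between replicates of the tested factors, with a median SD of 0.16 against 0.087 for all genes.

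**Figure D2:**
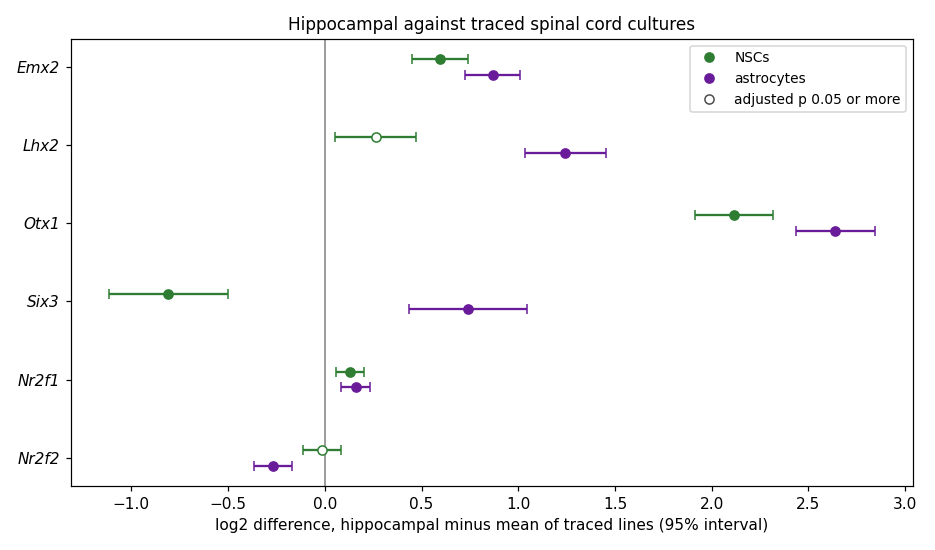
Log2 difference between the hippocampal line and the mean of the traced lines (horizontal axis; points with 95% intervals) for the 6 tested factors, in NSCs and in astrocytes. Otx1 is 2.11 and 2.64 higher in the hippocampal line, Six3 is at -0.81 in NSCs and 0.74 in astrocytes, and Nr2f1 and Nr2f2 lie within 0.27 of 0.

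Nr2f1 and Nr2f2 showed small differences between origins. As NSCs, Nr2f1 libraries gave 11.22, 11.18 and 11.11 in the tdTomato line, 11.52, 11.46 and 11.43 in the EYFP line and 11.42, 11.46 and 11.46 in the hippocampal line. As astrocytes they gave 12.02, 12.03 and 12.07, then 12.06, 12.03 and 12.05, and then 12.16, 12.15 and 12.29. Hippocampal and EYFP NSCs overlapped, tdTomato NSCs lay below both, and hippocampal astrocytes lay just above all traced astrocytes. The difference was 0.13 ± 0.04 in NSCs (adjusted p = 0.0086) and 0.16 ± 0.04 in astrocytes (adjusted p = 8.1e-04). The call in NSCs was lost with only the libraries compared in the fit and the traced lines as 1 group (adjusted p = 0.37), which left 3 of the 6 factors called there. In NSCs it was 0.28 against the tdTomato line alone and -0.02 (95% interval -0.11 to 0.06) against the EYFP line alone.

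Nr2f2 was the only one of the 6 that was lower in hippocampal astrocytes. As NSCs its libraries gave 8.91, 8.91 and 8.96 in the tdTomato line, 9.27, 9.24 and 9.12 in the EYFP line and 8.94, 9.14 and 9.09 in the hippocampal line. As astrocytes they gave 9.57, 9.59 and 9.61, then 9.79, 9.75 and 9.73, and then 9.42, 9.36 and 9.43. The hippocampal line lay among the traced lines as NSCs and below both as astrocytes. The difference was -0.02 ± 0.05 in NSCs (95% interval -0.11 to 0.08) and -0.27 ± 0.05 in astrocytes (adjusted p = 8.6e-05).

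The 2 traced lines were not alike as NSCs. Between them 4 of the 6 tested factors were called, where 31.4% of all genes were called. Emx2, Nr2f1 and Nr2f2 were higher in the EYFP line, by 0.38, 0.30 and 0.29, and Six3 was lower by the amount given above. Lhx2 differed by 0.25 (adjusted p = 0.10). As astrocytes 1 of the 6 was called, where 14.4% of all genes were called. That factor was Nr2f2, higher by 0.17 ± 0.05 in the EYFP line (adjusted p = 0.047), and it was no longer called when any of 15 of the 18 libraries was left out (adjusted p up to 0.14).

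Making astrocytes raised both nuclear receptors and lowered Lhx2 in every line. Nr2f1 rose by 0.87 ± 0.04 in the tdTomato line (adjusted p = 1.3e-12), 0.57 ± 0.04 in the EYFP line (5.1e-10) and 0.75 ± 0.04 in the hippocampal line (9.7e-12). Nr2f2 rose by 0.66, 0.54 and 0.35 ± 0.05 in the same order, with adjusted p from 2.9e-09 to 1.1e-05. Lhx2, whose NSC and astrocyte libraries did not overlap in any line, fell in each, with changes of -1.25, -1.53 and -0.41 ± 0.11 (adjusted p = 1.6e-08, 1.1e-09 and 0.0036). In all, 5 of the 6 factors changed in the hippocampal line, where 76.3% of all genes did. In the tdTomato line 4 changed, where 78.4% of all genes did, and in the EYFP line 4 changed, where 75.2% did. Such shares are near those of all genes, and it is the directions and sizes that describe the factors.

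Six3 fell in the spinal cord lines, with changes of -2.05 ± 0.17 in the tdTomato line and -1.47 ± 0.17 in the EYFP line (adjusted p = 3.3e-09 and 3.1e-07). In the hippocampal line its change was -0.21 ± 0.17 (95% interval -0.57 to 0.14, adjusted p = 0.26), and under quantile normalisation it was called at -0.58 (adjusted p = 0.0060). Otx1 and Emx2 were called only in the hippocampal line, where Otx1 rose by 0.46 ± 0.11 (adjusted p = 0.0012) and Emx2 by 0.27 ± 0.08 (adjusted p = 0.0048). In the traced lines their changes lay between -0.15 and 0.15, none past the threshold. In the tdTomato line Otx1 was called at -0.36 under quantile normalisation (adjusted p = 0.0090) and Emx2 at 0.23 under median centring (adjusted p = 0.013).

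**Figure D3:**
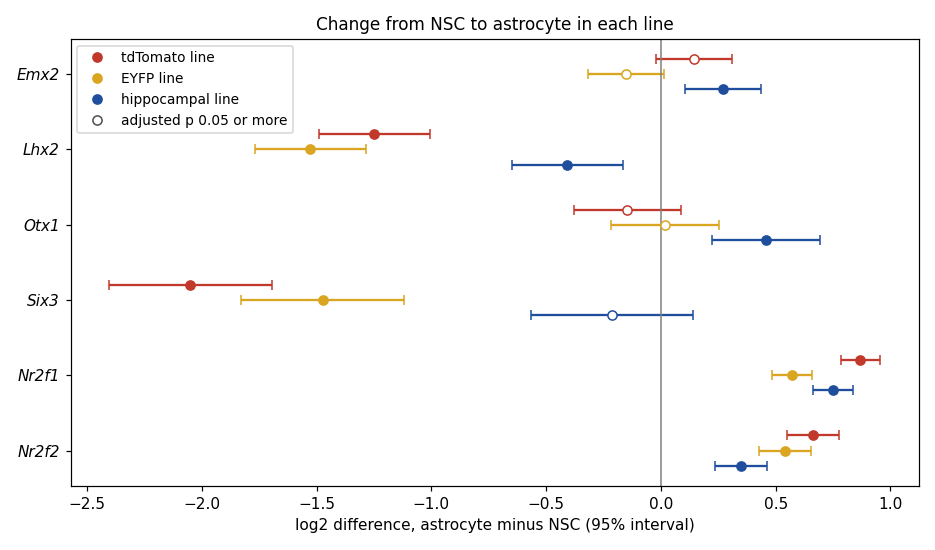
Log2 difference between astrocytes and NSCs (horizontal axis; points with 95% intervals) of the 6 tested factors in the tdTomato, EYFP and hippocampal lines. Nr2f1 and Nr2f2 are right of 0 and Lhx2 left of 0 in all 3 lines, and Six3 lies at -1.47 and -2.05 in the traced lines and at -0.21 in the hippocampal line.

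The change from NSC to astrocyte was also compared between the origins directly, as an interaction in the same fit. It differed for 5 of the 6 tested factors, where 46.2% of all genes differed. Hippocampal minus traced, the difference in change was 1.55 ± 0.21 for Six3 (adjusted p = 8.4e-06), 0.98 ± 0.14 for Lhx2 (1.9e-05) and 0.52 ± 0.14 for Otx1 (0.0045). It was 0.27 ± 0.10 for Emx2 (0.027) and -0.25 ± 0.07 for Nr2f2 (0.0046). Lhx2 thus fell less and Nr2f2 rose less in the hippocampal line, while the changes of Six3 in that line and of Otx1 and Emx2 in the traced lines did not themselves pass the threshold. For Nr2f1 it was 0.03 (95% interval -0.08 to 0.13). With the traced lines fitted as 1 group, Emx2 and Nr2f2 lost their calls (adjusted p = 0.17 and 0.10), as did Emx2 under median centring (0.20, adjusted p = 0.10). The result for Emx2 also lost its call without hippocampal NSC replicate 3 (0.24, adjusted p = 0.076), hippocampal astrocyte replicate 1 (0.27, 0.053) or replicate 3 (0.26, 0.058).

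Nes moved along with these differences. It stood at 13.75 to 14.39 in all NSC libraries and changed by -3.18 in the tdTomato line and -3.05 in the EYFP line, but hippocampal astrocytes kept 13.80, 13.43 and 13.70. Its difference in change between origins was 2.89 ± 0.13 (adjusted p = 1.6e-11). Fabp7, another of the 5 NSC markers, did not share this pattern. Its mean went from 14.93 in NSCs to 13.55 in astrocytes of the hippocampal line. The means went from 14.26 to 13.76 in the tdTomato line and from 14.71 to 14.30 in the EYFP line. The summed level of 8 pericyte and fibroblast markers was 43.2 to 57.3 on the linear scale in NSCs, 215 to 294 in traced astrocytes and 556 to 745 in hippocampal astrocytes, with Pdgfrb, Col1a2 and Dcn under 10 in every library. Of the 5 tested, 1 was higher and 2 lower in hippocampal than in traced astrocytes (median -0.16), the higher one being Vtn (vitronectin), at a mean of 8.61 against 2.51 in the tdTomato line and 3.52 in the EYFP line on the log2 scale. The summed level of 6 choroid plexus markers was 10.8 to 14.8 in NSCs, 27.5 to 56.5 in traced astrocytes and 81.5 to 91.6 in hippocampal astrocytes, with Ttr, Kl, Clic6 and Otx2 under 10 in every library. Oligodendrocyte lineage markers (7) summed to 54070 to 65220 in NSCs, 24429 to 32801 in traced astrocytes and 11882 to 13860.5 in hippocampal astrocytes. Of the 5 tested, 2 were higher and 3 lower in hippocampal than in traced astrocytes, where 59.7% of all genes were called. Ependymal markers (4) summed to 701 to 1453 in NSCs, 2066 to 2624 in traced astrocytes and 4566 to 5131 in hippocampal astrocytes. All 3 tested were higher there. The part of Nes and of all these markers in the differences of the forebrain factors was not tested.

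Ordered by level over the 6 groups, each factor had neighbours that could not be separated. For Otx1 the 4 traced groups ran from 5.74 to 5.89 and no neighbouring pair among them was called, while both hippocampal groups stood above, separated from them and from each other. For Lhx2 the 3 NSC groups and hippocampal astrocytes ran from 9.23 down to 8.83 with no neighbouring pair called. Pairs further apart among them were called, hippocampal against tdTomato NSCs (0.39, adjusted p = 0.012) and hippocampal astrocytes against hippocampal NSCs (-0.41, adjusted p = 0.0036). Both traced astrocyte groups followed at 7.59 and 7.57. For Emx2 the 4 traced groups ran from 8.25 to 7.87 with no neighbouring pair called. The groups at the ends of that run, EYFP and tdTomato NSCs, were called (0.38, adjusted p = 0.0014). The nuclear receptors placed the 3 astrocyte groups above the 3 NSC groups.

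Other forebrain factors were more often higher than lower in the hippocampal line. Of 23 considered, 18 were in the table and 7 passed the filter. In NSCs 4 were higher and 1 lower in the hippocampal line, and in astrocytes 5 were higher and 1 lower, with median differences of 0.73 and 0.48. As given above, 31.9% and 59.7% of all genes were called in these comparisons. Nr2e1 (Tlx), a nuclear receptor of forebrain stem cells, was higher by 1.66 and 2.25 in the hippocampal line (NSCs, then astrocytes). Dmrta2, which acts in cortical patterning, was higher by 0.73 and 2.15.

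Nr2e1 and Dmrta2 were also above the filter in traced NSCs, at 6.69 to 7.04 and 7.44 to 7.89, and like Lhx2 they fell in both traced lines when astrocytes were made. Nr2e1 changed by -1.71 and -1.86 in the tdTomato and EYFP lines, and in the hippocampal line it fell from 8.49 ± 0.05 to 7.31 ± 0.15 (SD, n = 3). Dmrta2 changed by -1.68 and -1.33 in the traced lines, and stood at 8.45 ± 0.05 in hippocampal NSCs and 8.37 ± 0.08 in hippocampal astrocytes (SD, n = 3). Its difference in change between origins was 1.42 ± 0.10 (adjusted p = 3.5e-09).

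Genes of more caudal regions were compared in the same way. Of 39 Hox genes, which set position along the trunk, 33 were tested and 30 were lower in the hippocampal line in each fate, with 2 higher, and the median differences were -2.96 in NSCs and -3.48 in astrocytes. Among 10 tested midbrain and hindbrain factors, 1 was higher and 3 lower in hippocampal NSCs, and 4 were higher and 5 lower in hippocampal astrocytes, with medians of 0.08 and -0.19, where 31.9% and 59.7% of all genes were called. Unlike the Hox genes, that list showed no common direction. The plot of regional factors sets these lists beside the 6 tested factors.

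**Figure D4:**
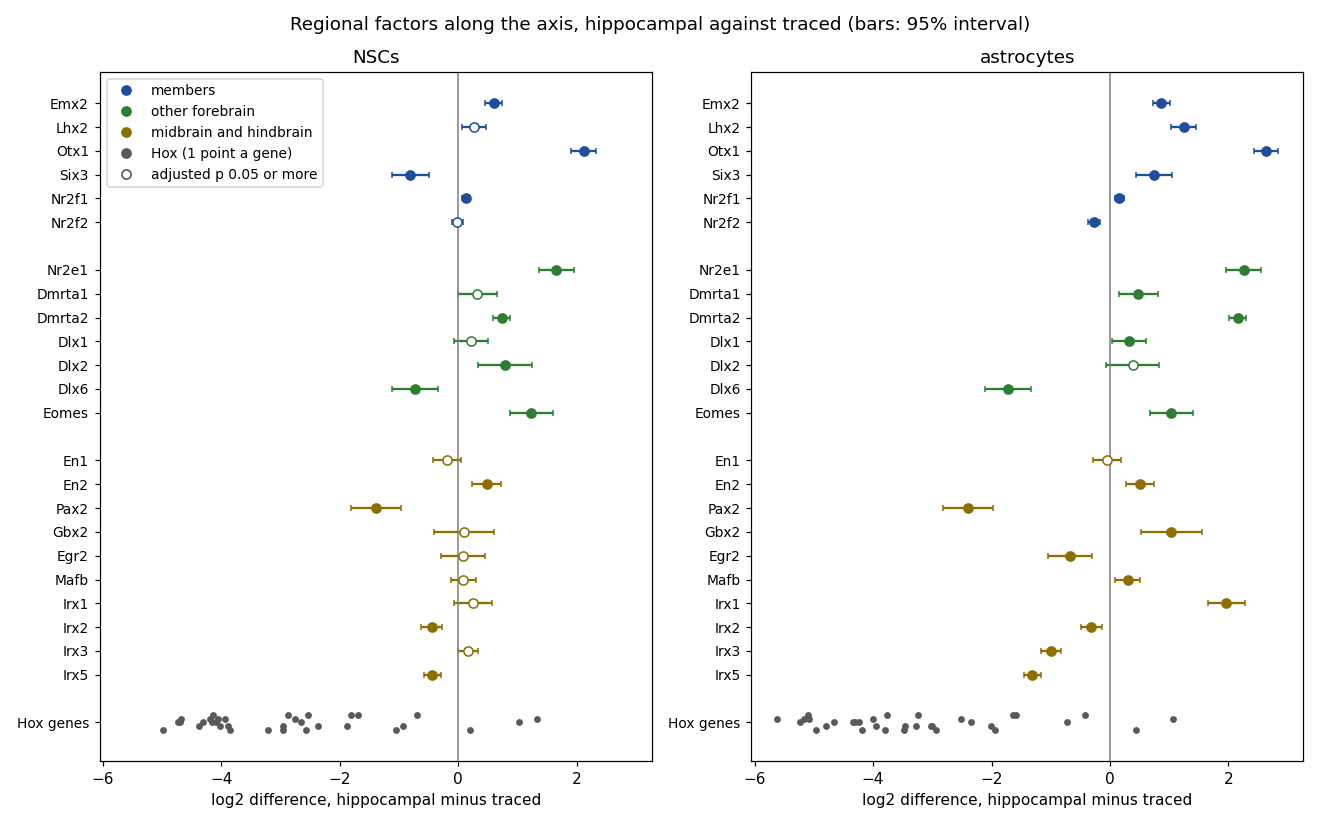
Log2 difference, hippocampal minus traced (horizontal axes; points with 95% intervals), in NSCs (left) and astrocytes (right) for the tested forebrain factors described here, other forebrain factors, midbrain and hindbrain factors and 33 Hox genes (1 point a gene). Most Hox genes lie left of 0, while the 6 tested factors spread from -0.81 to 2.64.

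Genes of the same families as the 8 showed no common direction in NSCs. Of 22 listed, 12 were tested, and 2 were higher and 3 lower in hippocampal NSCs (31.9% of all genes called), with a median difference of -0.01. In astrocytes 6 were higher and 2 lower (59.7% of all genes called), with a median of 0.16. Cofactors that bind homeodomain or nuclear receptor proteins were all tested, 19 of 19. Of these 2 were higher and 7 lower in hippocampal NSCs, and 4 higher and 9 lower in hippocampal astrocytes, where the shares of all genes called were those just given. Bcl11a and Bcl11b (CTIP1 and CTIP2), zinc finger proteins that bind COUP-TF receptors, were lower in hippocampal NSCs, with differences of -1.83 and -2.54. Lmo1, a LIM-only protein, fell in all 3 lines on differentiation, with changes of -3.56, -2.82 and -3.07 in the tdTomato, EYFP and hippocampal lines.

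Some of these genes have a transcript on the opposite strand, and the strand setting used in counting is not given in the sources used here. Emx2 (chromosome 19, 59458372 to 59465357, plus strand, GRCm38) overlaps the antisense RNA Emx2os at its start. Emx2os had means of 6.44 to 6.98 in NSCs and 6.99 to 7.31 in astrocytes, and between origins it was not called in NSCs (0.31, adjusted p = 0.13) or in astrocytes (0.30, adjusted p = 0.090). Against tdTomato NSCs alone it was higher in hippocampal NSCs (0.54, adjusted p = 0.018) and in EYFP NSCs (0.47, adjusted p = 0.043), as Emx2 was. Nr2f1 (chromosome 13, 78188973 to 78199757, minus strand) overlaps A830082K12Rik, which rose with it by 0.71, 0.45 and 0.52 in the tdTomato, EYFP and hippocampal lines. The partners of Six3, Lhx2, Nr2f2 and Otx2 lay under 2 on the log2 scale in every library. Without the strand setting, reads that lie where Emx2 or Nr2f1 overlaps its partner cannot be assigned to either gene. No 75-base window of Emx1, Emx2, Lhx2, Otx1, Six3, Nr2f1 or Nr2f2 transcripts was shared with another gene, and 2.14% of Otx2 windows were.

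Over the 18 libraries, which share lines and fates, the factors fell into patterns that the correlations describe. Emx2 and Otx1 had a Pearson correlation of 0.93, Nr2f1 and Nr2f2 of 0.87 and Lhx2 and Six3 of 0.75, while Six3 and Nr2f2 had -0.88. Of 11956 genes searched, those most like Otx1 included Gm3375 (0.98) and Dynlt1b. Those most like Emx2 were Pcdhgc5 (0.96), Dhx35 and Ccdc187. The nearest to Lhx2 were Rnf144a (0.98), Iqgap2 and Sfxn1, and to Six3 Arl4c (0.96), Eri3 and Tsen15. For Nr2f1 they were Nedd9 (0.99), Miat and Srgap1, and for Nr2f2 Galm (0.98), Lman2l and A730056A06Rik.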

How the data were processed

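RNA was measured in 18 libraries of 6 groups. Per the labels, reads were trimmed with Trimmomatic (0.36), aligned with STAR (2.5.2), quantified with RSEM (1.3.0) on GRCm38 and normalised with DESeq2 (1.18.1). The authors deposited log2 values for 27997 genes, of which 29.4% are negative. The transform is not named and the depth behind each value is unknown (the labels state at least 25 M reads of 76 bases), so differences of weak genes are understated and no counting error is given. The library kit and read length differ between the paper and the labels.

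No pseudocount was added. All 18 libraries entered a single limma fit (3.58.1, R 4.3.3) of 6 group means with a trend in the variance. Traced values are the mean of both lines. The test was tested on simulated data. Intervals are 95% intervals of that fit, without adjustment.

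The 8 genes and all lists were chosen with earlier results of these data known. Beyond the 8, up to 4 genes per list and comparison were named, with the largest called difference of at least 1 and a mean of at least 100 on the linear scale; genes within 5 kb of the 8 and the 3 most correlated genes were added. Dmrta2 in NSCs and values beside a named gene were given outside that rule, after they were seen. Of the other forebrain factors and correlated genes, 2 are not reported here and were left out of the counts. Motifs were searched in the 250 bases before each start. Alternatives were 2 pseudocounts, 2 filters, median centring, quantile normalisation, no trend, only the libraries compared (the traced lines as 1 group), each library left out in turn and a replicate block. Labels give no batch.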

Additional observations from a re-analysis of the deposited data

Results flagged for a closer look

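The change from NSC to astrocyte differed between the hippocampal and the traced lines, by a test of the difference itself in limma, for 5 of the 6 tested factors. Hippocampal minus traced, the differences on the log2 scale were 1.55 for Six3, 0.98 for Lhx2, 0.52 for Otx1, 0.27 for Emx2 and -0.25 for Nr2f2. In the same test 46.2% of all genes differed. With the traced lines fitted as 1 group, 3 of the 5 were called, without Emx2 (adjusted p = 0.17) and Nr2f2 (0.10), and under median centring Emx2 was not called (0.20, adjusted p = 0.10). No group had 4 or more libraries, so single libraries were not examined for standing apart.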

How the results depend on the processing

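Over 72 differences of the tested factors and 1932 values under the alternatives, 1846 kept direction and side of the threshold, 36 lost the call, 28 gained it and 22 changed sign, all of these for differences that were not called. The call of Nr2f2 between EYFP and tdTomato astrocytes was lost (0 of 6 factors called) under the replicate block, no filter, median centring, quantile normalisation, no trend and only the libraries compared, and between 0 and 1 factors were called with a library left out. With only the libraries compared and the traced lines as 1 group, 2822 in place of 4932 genes were called between hippocampal and traced NSCs, Nr2f1 not among them (adjusted p = 0.37), and 3 of the 5 differences in change were called, without Emx2 (0.17) and Nr2f2 (0.10). For the NSC comparison 9 libraries entered that fit and for the difference in change all 18, and in both the difference between the traced lines entered the spread.

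Lhx2 between hippocampal and traced NSCs passed the threshold with a filter of 100 (adjusted p = 0.047), median centring (0.031), quantile normalisation (0.038) and a pseudocount of 10 (0.047). Six3 between hippocampal and EYFP NSCs passed with no trend (0.036), pseudocounts of 1 (0.046) and 10 (0.024) and only the libraries compared (0.042). Nr2f2 in that comparison lost its call without a filter (0.054), with either scaling (0.070 and 0.085), with only the libraries compared (0.13) and without either of EYFP NSC replicates 1 and 2 or hippocampal NSC replicates 1 and 3 (0.052 to 0.22). Under quantile normalisation Six3 fell by 0.58 in the hippocampal line (0.0060) and Otx1 by 0.36 in the tdTomato line (0.0090), and under median centring Emx2 rose by 0.23 in the tdTomato line (0.013) and its difference in change was 0.20 (0.10). The cause was not tested.

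Changes of sign under median centring were 0.013 for Nr2f2 between hippocampal and traced NSCs, 0.016 for Otx1 between EYFP and tdTomato NSCs, -0.00165 for Nr2f1 between EYFP and tdTomato astrocytes and -0.043 for the difference in change of Nr2f1. Under quantile normalisation they were 0.017 for Nr2f2, -0.013 for Nr2f1 between traced astrocytes, -0.011 for its difference in change and -0.14 for Otx1 on differentiation of the EYFP line. With each library left out, values ran from -0.056 to 0.044 for Nr2f2 between hippocampal and traced NSCs, from -0.042 to 0.0018 for Nr2f1 between hippocampal and EYFP NSCs and from -0.10 to 0.076 for Otx1 between traced NSCs. Between traced astrocytes they ran from -0.17 to 0.11 for Lhx2, -0.31 to 0.010 for Six3 and -0.0042 to 0.021 for Nr2f1. They ran from -0.10 to 0.097 for Otx1 on differentiation of the EYFP line and from -0.016 to 0.056 for the difference in change of Nr2f1. Median centring took the median difference of all genes on differentiation of the tdTomato line from 0.01 to 0.10, and moved the share of higher calls from 46.6% to 56.8% between hippocampal and tdTomato NSCs and from 56.1% to 43.8% for the difference in change.

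The replicate numbers of the titles were fitted as a replicate block. Libraries of the same number and fate had a mean correlation of 0.11 in their deviations (18 pairs, 0.012 to 0.31) and those of the same number and line -0.023 (9 pairs). Libraries of other numbers had a mean of -0.020 (90 pairs, -0.35 to 0.12), below every pair of the same number and fate on average. Not every pair of the same number was over 0.1, so the main fit did not pair the samples. The fit with the block is given beside it. With the block, 5 of 6 factors were called between hippocampal and traced NSCs (Lhx2 added, adjusted p = 0.034), 4 between hippocampal and EYFP NSCs (Six3 added, 0.048) and 0 between traced astrocytes (Nr2f2 lost, 0.060).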
